A study of Mus musculus with 6 samples.

Results

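The 10 chemokine receptors described here are those that mark the main leukocytes of blood. They comprise Cxcr2 for neutrophils, Ccr1, Ccr2 and Cx3cr1 for monocytes, Ccr7, Cxcr5, Cxcr3, Ccr6 and Ccr9 for lymphocytes, and Cxcr4, which most leukocytes carry. Each has 1 probe set that names it alone among the 41345 of the array, and 7 of the 10 reached the study's expression minimum of 100 on the linear scale, applied here to the average of the 6 arrays' log2 values (6.64). Whole blood RNA was taken from 3 mice of the enriched environment (EE) and 3 of the standard environment (SE), 1 array per mouse. All were male, outbred CD1 mice, labelled as 9 weeks old, housed for 2 weeks in their enclosure and given no inflammatory insult. The standard enclosure was a cage with wood chip bedding and nesting material, and the enriched enclosure was larger and added a wheel, a nest house and a tunnel. The study housed its mice in groups and does not say which arrayed mice shared an enclosure, and p-values measure the spread between these mice.

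Chemokine receptors are G protein-coupled receptors that steer leukocytes along gradients of chemokines. They signal mostly through G proteins of the Gi class, which activate phosphoinositide 3-kinase and the Rac GTPases, and they are then silenced by receptor kinases, arrestins and RGS proteins. In blood they govern which cells enter from the bone marrow and where they go next. Neutrophils are drawn out of the marrow through Cxcr2 and held there through Cxcr4, classical monocytes leave it through Ccr2, and naive lymphocytes return to lymph nodes and follicles through Ccr7 and Cxcr5.

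The promoters of 3 members are shown as examples of the patterns seen below. Cxcr2 was higher in EE mice, Cxcr3 was highest in EE mouse 3, and Ccr6 was lowest in EE mouse 3. The sequences run from 250 bases before to 50 bases after the transcript start in RefSeq, build GRCm38.p6, where 8 of the 10 members have an entry. Capitals mark matches on either strand to GGAAGT, the core bound by PU.1 and other ETS factors, or to TGTGGT, bound by RUNX factors. On the opposite strand these read as ACTTCC and ACCACA. The 3 promoters shown are also those with a match to GGAAGT. Ccr2 and Cx3cr1, likewise highest in EE mouse 3, held none, nor did Cxcr4, likewise lowest in it, or the other Ccr6 promoter.
Cxcr2, chr1:74153744-74154043, plus strand: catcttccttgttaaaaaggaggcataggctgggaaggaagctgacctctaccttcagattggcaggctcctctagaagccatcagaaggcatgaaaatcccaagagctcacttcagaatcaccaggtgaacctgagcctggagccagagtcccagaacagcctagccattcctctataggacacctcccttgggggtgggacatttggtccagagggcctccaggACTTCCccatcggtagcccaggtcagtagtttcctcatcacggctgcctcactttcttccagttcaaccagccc
Cxcr3, chrX:101734098-101734397, minus strand: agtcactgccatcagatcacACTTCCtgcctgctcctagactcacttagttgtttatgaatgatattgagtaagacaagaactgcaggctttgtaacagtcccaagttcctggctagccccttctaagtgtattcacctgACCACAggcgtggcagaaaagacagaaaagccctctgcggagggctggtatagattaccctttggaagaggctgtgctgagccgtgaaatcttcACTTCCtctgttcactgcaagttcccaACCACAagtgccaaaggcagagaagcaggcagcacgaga
Ccr6, chr17:8235793-8236092, plus strand: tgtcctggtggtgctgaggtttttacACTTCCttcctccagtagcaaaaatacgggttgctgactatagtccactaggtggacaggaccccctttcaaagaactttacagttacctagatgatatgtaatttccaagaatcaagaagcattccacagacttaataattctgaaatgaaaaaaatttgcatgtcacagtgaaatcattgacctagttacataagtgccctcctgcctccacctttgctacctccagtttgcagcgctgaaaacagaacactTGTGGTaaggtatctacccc

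Over the 9 promoters of the 8 members, the ETS core was found in 3, those shown, against 23.8% of 32851 promoters of this length. The RUNX core was found in 4 of the 9 (Ccr1, Cx3cr1, Cxcr3 and the Ccr6 promoter shown), against 16.8%. TTGCNNAA, the C/EBP motif, was found in 0 of the 9, against 10.8%. The promoters of Ccr2, Ccr9 and Cxcr4 and the other Ccr6 promoter, 4 in all, held no match to any of these motifs. A match is a stretch of letters and was not tested as a site.

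Over the 6154 probe sets tested, EE mouse 3 stood apart. Its mean correlation with the other arrays was 0.932, against 0.956 to 0.965 for the others. It was the lowest of the 6 mice for 50.1% of probe sets and the highest for 12.9%. Of all 41345 probe sets, 8255 reached 100 on the linear scale in this mouse, against 9027 to 9336 in the others. Among the 7 receptors tested, it was lowest for 4 and highest for 2. Comparisons are therefore given with and without this mouse where it changes them. Blood cell markers were present. Of other cells that could add RNA, 0 of 6 heart muscle markers, 0 of 7 eosinophil and basophil markers and 1 of 6 dendritic cell markers (Cd209a, difference 0.09) reached the minimum. Of 10 platelet markers tested, 0 were higher and 0 lower at an unadjusted p under 0.05 in limma, against 1.46% and 3.14% of all probe sets tested. The median difference of the platelet markers was 0.32, and 8 were highest in EE mouse 3.

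Cxcr2, the receptor for the neutrophil-attracting chemokines Cxcl1 and Cxcl2, was higher in EE mice at an unadjusted p under 0.05. On the log2 scale, mice 1, 2 and 3 of the SE group lay at 10.05, 9.91 and 9.58, and those of the EE group at 10.81, 10.27 and 10.32. All EE values thus exceeded all SE values, which held for 3.92% of all probe sets tested. The means were 9.85 ± 0.24 (SD, n = 3) in SE mice and 10.47 ± 0.30 (SD, n = 3) in EE mice. The difference of 0.62 on the log2 scale, a fold of 1.54, had a standard error of 0.19 and a 95% interval of 0.17 to 1.07 (limma, unadjusted p = 0.0133, adjusted p = 0.855).

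Of the 7 receptors tested, 1 was higher at an unadjusted p under 0.05 from limma and 0 lower, against 1.46% and 3.14% of all probe sets. None passed the study's thresholds of p and of a 2-fold difference, which 0.114% of all probe sets passed upwards. None passed an adjusted p of 0.05 either, nor did any probe set of the array (0%). Without SE mouse 3, the lowest for Cxcr2, the difference was 0.49 (limma, unadjusted p = 0.0526).

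**Figure D1:**
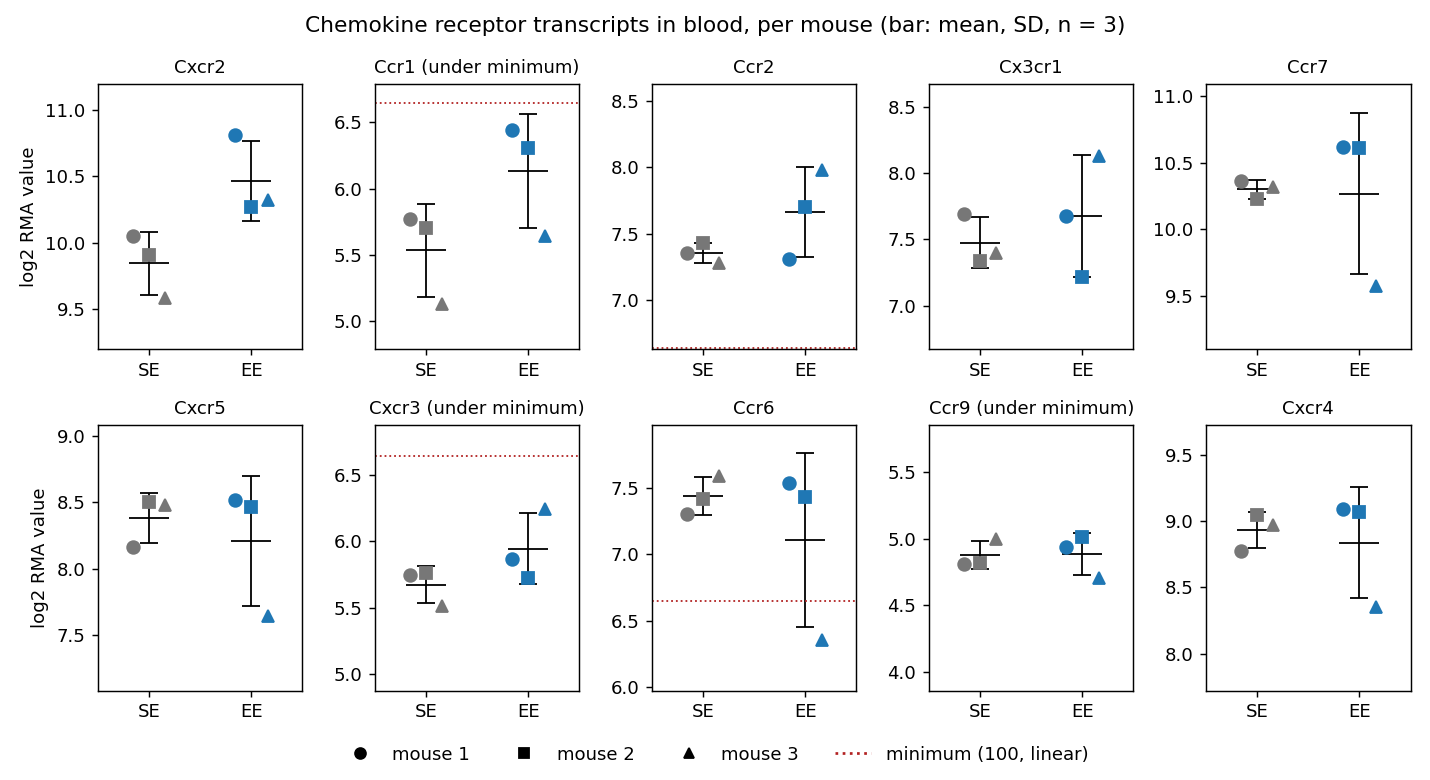
Log2 RMA values of the 10 receptors in SE (grey) and EE (blue) mice, 1 point per mouse with the symbol giving the mouse number, and bars at the mean with the SD (n = 3). Each panel spans 2 log2 units, the dotted line is the minimum of 100 on the linear scale, and EE mouse 3 (blue triangle) lies below the other mice for Ccr7, Cxcr5, Ccr6 and Cxcr4 and above them for Ccr2, Cx3cr1 and Cxcr3.

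Other neutrophil transcripts lay higher in the same mice. Of 16 neutrophil markers, 15 have a probe set and 7 were tested, with a median difference of 0.61. Of the 7, 5 were higher at an unadjusted p under 0.05 and 0 lower, against 1.46% and 3.14% of all probe sets tested. Csf3r, through which G-CSF drives neutrophil production, differed by 0.61 (standard error 0.12, limma, unadjusted p = 0.000895), and Mmp8, a collagenase of neutrophil granules, by 0.57 (standard error 0.16, limma, unadjusted p = 0.00865). Relative to the mean of the SE mice, Cxcr2 lay at 0.97, 0.42 and 0.48 in EE mice 1, 2 and 3 and the median of the markers at 0.84, 0.48 and 0.56. The summed level of the 15 markers on the linear scale ranged from 3373 to 4034 in SE mice and from 5112 to 5879 in EE mice. In the fit with no minimum, the 8 markers under it differed by -0.17 (Camp) to 0.94 (Ly6g). Of the 8, 2 (Trem1 and Ly6g) were higher at an unadjusted p under 0.05, against 1.59% of all probe sets in that fit. Camp, Ltf and Ngp, which encode granule proteins of maturing neutrophils, were under the minimum. They differed by -0.17, -0.01 and 0.09 (limma, unadjusted p = 0.206, 0.947 and 0.697). Lcn2, another granule protein gene, passed the minimum and differed by 0.76 (limma, unadjusted p = 0.0364). Ly6g, a defining surface marker of mouse neutrophils, lay at 5.20, 5.14 and 4.50 in the SE group and 6.35, 5.79 and 5.54 in EE mice. The part of these markers in the Cxcr2 difference was not tested, and in whole blood more cells of a type and more RNA per cell cannot be told apart.

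The genes whose values ran closest to those of Cxcr2 over the 6 mice were Trem3, an activating receptor of myeloid cells, Hp, which encodes haptoglobin, and Gcnt2, a glycosyltransferase. Their centred values differed from those of Cxcr2 by a root mean square of 0.080, 0.090 and 0.10 on the log2 scale, the smallest among 5600 genes. Trem3 lay at 7.47, 7.28 and 6.99 in the SE group and at 8.04, 7.63 and 7.55 in EE mice.

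Ccr1, a receptor for Ccl3 and Ccl5 on monocytes and neutrophils, was under the minimum, with a mean over the 6 arrays of 5.83. Its values were 5.77, 5.71 and 5.14 in SE mice and 6.44, 6.31 and 5.64 in EE mice. EE mice 1 and 2 lay above the SE mice, whereas EE mouse 3 lay among them. In a fit with no minimum the difference was 0.59 (standard error 0.24, 95% interval 0.04 to 1.14, limma, unadjusted p = 0.0373, adjusted p = 1.00). In that fit, 1.59% of 25341 probe sets were higher at an unadjusted p under 0.05 and 1.73% lower, and of the 3 receptors under the minimum Ccr1 was the only such case. Without EE mouse 3 the Ccr1 difference was 0.84 (unadjusted p = 0.00266), and with SE mouse 3, EE mouse 1 or EE mouse 2 left out it was 0.39, 0.44 and 0.50 (unadjusted p = 0.142, 0.132 and 0.105).

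The receptors that define the blood monocyte subsets differed less between the groups. Ccr2, the Ccl2 receptor of classical monocytes, lay at 7.35, 7.43 and 7.28 in the SE group and at 7.31, 7.70 and 7.98 in EE mice. The SE mice lay within a narrow band (SD 0.074), and EE mice 2 and 3 lay above it while EE mouse 1 did not. The difference was 0.31 (standard error 0.18, 95% interval -0.11 to 0.73, limma, unadjusted p = 0.130, adjusted p = 0.993). Leaving out EE mouse 1 gave 0.49 (unadjusted p = 0.0196) and leaving out EE mouse 3 gave 0.15 (unadjusted p = 0.324).

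Cx3cr1, the fractalkine receptor of patrolling monocytes and some natural killer cells, lay at 7.69, 7.34 and 7.39 in the SE group and at 7.68, 7.21 and 8.13 in EE mice. The groups overlapped, with EE mouse 3 highest and EE mouse 2 lowest. The difference of 0.20 (standard error 0.23, 95% interval -0.34 to 0.74, limma, unadjusted p = 0.421) was smaller than the spread within the EE mice (SD 0.46), and it was -0.03 without EE mouse 3.

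Monocyte markers gave values of the same order. Of 15 markers, 12 were tested, with a median difference of 0.15. Of the 12, 1 was higher at an unadjusted p under 0.05 and 0 lower, against 1.46% and 3.14% of all probe sets tested. EE mouse 3 was the highest for 8 of the 12, against 12.9% of all probe sets tested. Mpeg1, a pore-forming protein of phagocytes, was the higher marker (difference 0.35, standard error 0.13, limma, unadjusted p = 0.0339). Ly6c2, which marks classical monocytes, lay at 10.39 in EE mouse 3, while the other mice lay between 8.69 and 9.34. Treml4 and Ace, both of patrolling monocytes, differed by -0.12 and -0.29 (limma, unadjusted p = 0.716 and 0.416). Adgre4 and Nr4a1, also of these cells, differed in opposite directions, by -0.23 and 0.25 (limma, unadjusted p = 0.371 and 0.418). The summed level of the 15 markers ranged from 4981 to 7212 in SE mice and from 6196 to 8651 in EE mice. Their part in the values of Ccr2 and Cx3cr1 was not tested.

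**Figure D2:**
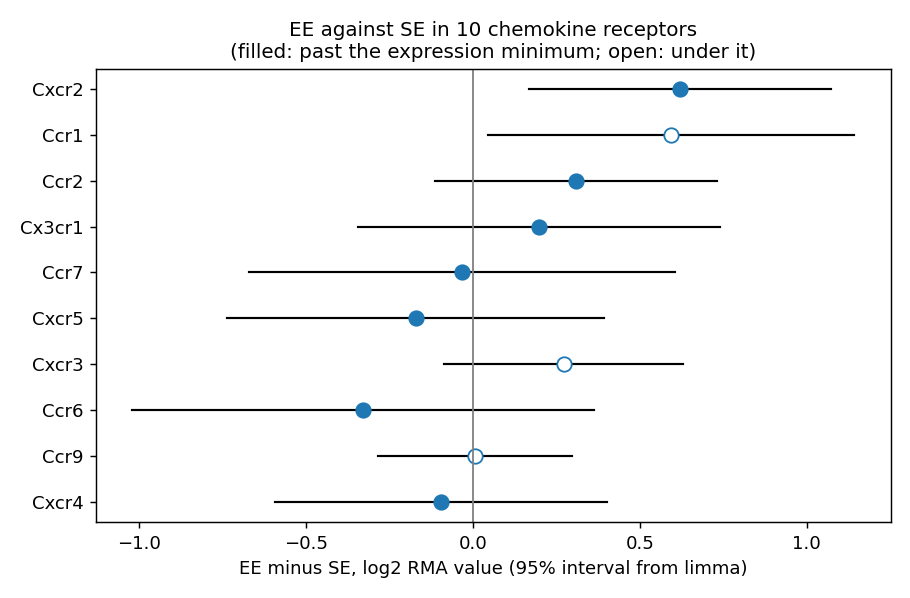
EE minus SE difference in log2 RMA value for each receptor, with the 95% interval from limma. Filled points passed the expression minimum and open points come from the fit with no minimum, and the interval lies above 0 for Cxcr2 (0.17 to 1.07) and Ccr1 (0.04 to 1.14).

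Among the lymphocyte receptors, those of naive and follicular cells differed more among the EE mice than between the groups. Ccr7, the receptor for Ccl19 and Ccl21 that brings naive T cells into lymph nodes, lay at 10.36, 10.23 and 10.32 in SE mice. In EE mice it lay at 10.62, 10.61 and 9.57. EE mice 1 and 2 thus lay above the SE mice and EE mouse 3 below them. With the 6 mice the difference was -0.03 (standard error 0.28, 95% interval -0.67 to 0.61, limma, unadjusted p = 0.908), and without EE mouse 3 it was 0.32 (standard error 0.10, unadjusted p = 0.0153, adjusted p = 0.355). Array weights, which give less weight to arrays far from their group, gave 0.33 (unadjusted p = 0.0198).

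Ccr6, a receptor for Ccl20 on B cells and some T cells, showed the widest spread of the lymphocyte receptors. It lay at 7.30, 7.42 and 7.59 in the SE group and at 7.54, 7.43 and 6.36 in EE mice, so that EE mice 1 and 2 lay among the SE mice and EE mouse 3 was 1.08 below the SE mean. The difference was -0.33 (standard error 0.30, 95% interval -1.02 to 0.36, limma, unadjusted p = 0.304) and 0.05 without EE mouse 3 (unadjusted p = 0.707). Cxcr5, the Cxcl13 receptor that brings B cells into follicles, lay at 8.17, 8.50 and 8.48 in the SE group and at 8.52, 8.47 and 7.65 in EE mice. Here too EE mouse 3 was the lowest. The difference was -0.17 (standard error 0.24, 95% interval -0.74 to 0.39, limma, unadjusted p = 0.503) and 0.11 without EE mouse 3 (unadjusted p = 0.434).

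Cxcr4, the Cxcl12 receptor that retains leukocytes in the bone marrow, was lowest in EE mouse 3, as were these lymphocyte receptors, while Cxcr2 was not. It lay at 8.78, 9.05 and 8.97 in the SE group and at 9.09, 9.07 and 8.35 in EE mice. EE mice 1 and 2 lay just above the SE mice. The difference was -0.09 (standard error 0.21, 95% interval -0.59 to 0.40, limma, unadjusted p = 0.672), and 0.15 without EE mouse 3 (unadjusted p = 0.241).

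The receptors of effector and gut-homing lymphocytes were under the minimum. Cxcr3, the receptor for Cxcl9 and Cxcl10 on effector T cells and natural killer cells, lay at 5.75, 5.76 and 5.51 in the SE group and at 5.87, 5.73 and 6.24 in EE mice. In contrast to Ccr7, it was highest in EE mouse 3, and the groups overlapped. The difference in the fit with no minimum was 0.27 (standard error 0.16, 95% interval -0.09 to 0.63, limma, unadjusted p = 0.118), and 0.12 without EE mouse 3. Ccr9, the receptor for Ccl25 that guides lymphocytes to the small intestine and the thymus, lay between 4.71 and 5.01 in the 6 mice, with a difference of 0.01 (95% interval -0.28 to 0.30). At this signal no difference was detectable for Ccr9.

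Lymphocyte markers separated EE mouse 3 in the same way, a mouse that was the lowest for 50.1% of all probe sets tested. The 14 B cell markers tested were lowest in this mouse in 14 of 14 cases, and their median lay 0.89 below the mean of the SE mice there, against -0.01 and 0.05 in EE mice 1 and 2. Their summed level ranged from 13141 to 17999 in SE mice and from 9284 to 17254 in EE mice. The 17 T cell markers tested were lowest in EE mouse 3 in 13 cases. Their median lay at 0.46 and 0.39 in EE mice 1 and 2 and at -0.39 in EE mouse 3, an order of mice like that of Ccr7 (0.32, 0.31 and -0.73). Their summed level ranged from 6793 to 8896 in SE mice and from 5655 to 11355 in EE mice.

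Between the groups, 0 of 14 B cell markers and 1 of 17 T cell markers reached an unadjusted p under 0.05 from limma. At this threshold 1.46% of all probe sets tested were higher in EE mice and 3.14% lower. The T cell marker was Thy1, a surface glycoprotein (difference 0.31, standard error 0.13, limma, unadjusted p = 0.0486). The 5 natural killer cell markers tested were highest in EE mouse 3 in 4 cases, as Cxcr3 was, against 12.9% of all probe sets tested. Their median lay 0.49 above the mean of the SE mice there. The summed level of the 11 natural killer cell markers ranged from 1120 to 1809 in SE mice and from 1508 to 2209 in EE mice. Klrb1c, a defining marker of these cells, was under the minimum. The part of these markers in the receptor values was not tested.

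**Figure D3:**
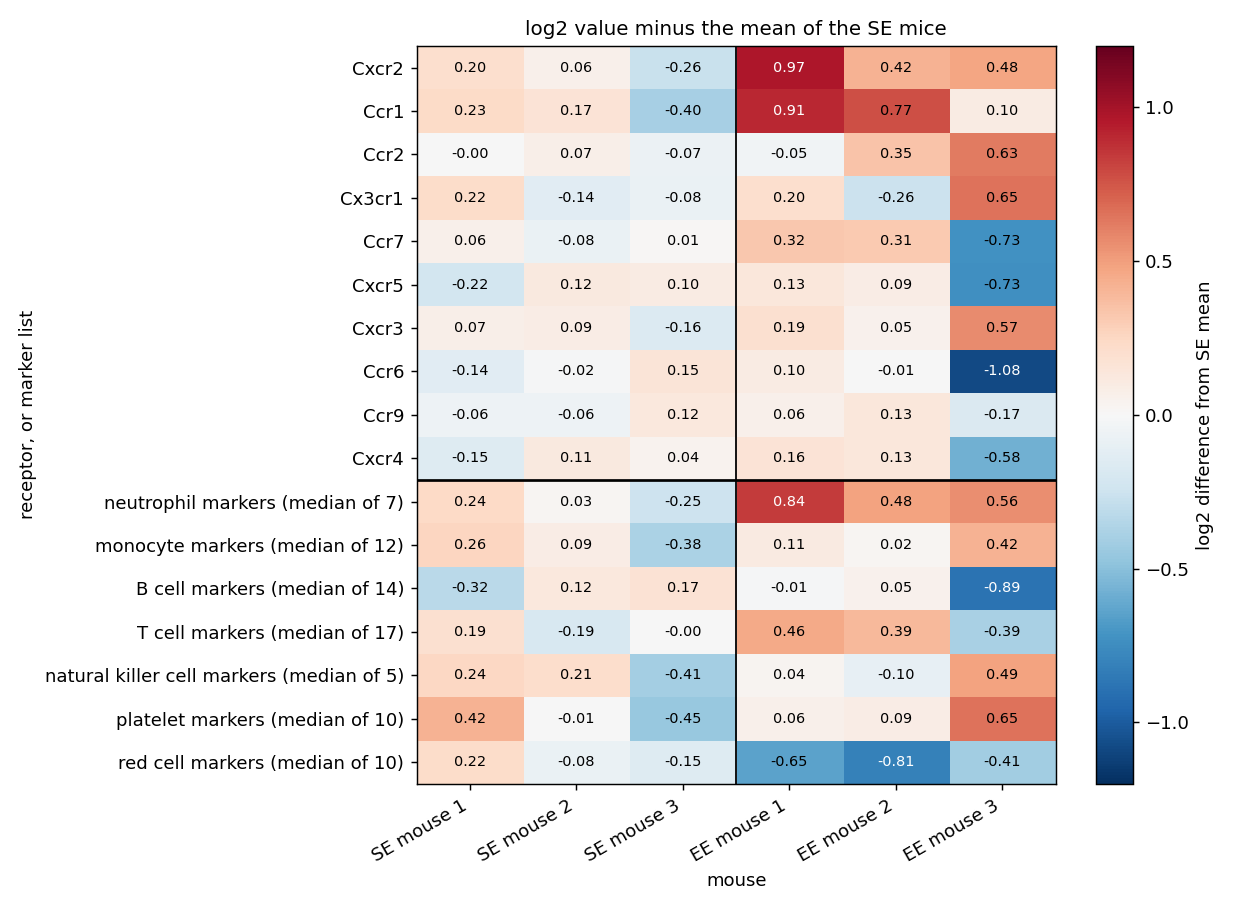
Log2 value of each receptor relative to its SE mean (upper 10 rows), and the median of the same quantity over the tested genes of each marker list (lower rows), in each of the 6 mice. In EE mouse 3, Ccr7, Cxcr5, Ccr6 and Cxcr4 lie at -0.58 to -1.08 and the B cell markers at -0.89, while Ccr2, Cx3cr1 and Cxcr3 lie at 0.57 to 0.65.

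The patterns closest to those of the lymphocyte receptors were of genes with general roles. For Ccr7 they were Il6st, the signaling subunit shared by receptors of the interleukin-6 family, Casp8, a caspase of death receptors, and Peli1, a ubiquitin ligase, with root mean square differences of 0.041, 0.045 and 0.045 on the log2 scale. For Ccr6 they were Jmjd1c, a chromatin protein, Mdm4, an inhibitor of p53, and Ddx18, an RNA helicase, at 0.060, 0.075 and 0.078. EE mouse 3 was the lowest mouse for each of these 6 genes, for example at 7.73 for Il6st, where the others lay between 8.37 and 8.87. This follows from the choice of genes by their likeness to receptors that were lowest in this mouse. It was also the lowest for 50.1% of all probe sets tested.

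As groups, the receptors past the minimum lay as follows, each receptor being set relative to its SE mean and the median taken, without a test. The 2 monocyte receptors lay between -0.08 and 0.11 in the SE group and at 0.08, 0.04 and 0.64 in EE mice. For the 3 lymphocyte receptors the range was -0.14 to 0.10 in SE mice and the values were 0.13, 0.09 and -0.73 in EE mice. Over the 7 receptors tested the median difference between EE and SE was -0.03, and it was -0.03 over all probe sets tested too. Of the 7, 3 had positive and 4 negative differences, while 41.8% of all probe sets had positive ones.

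**Figure D4:**
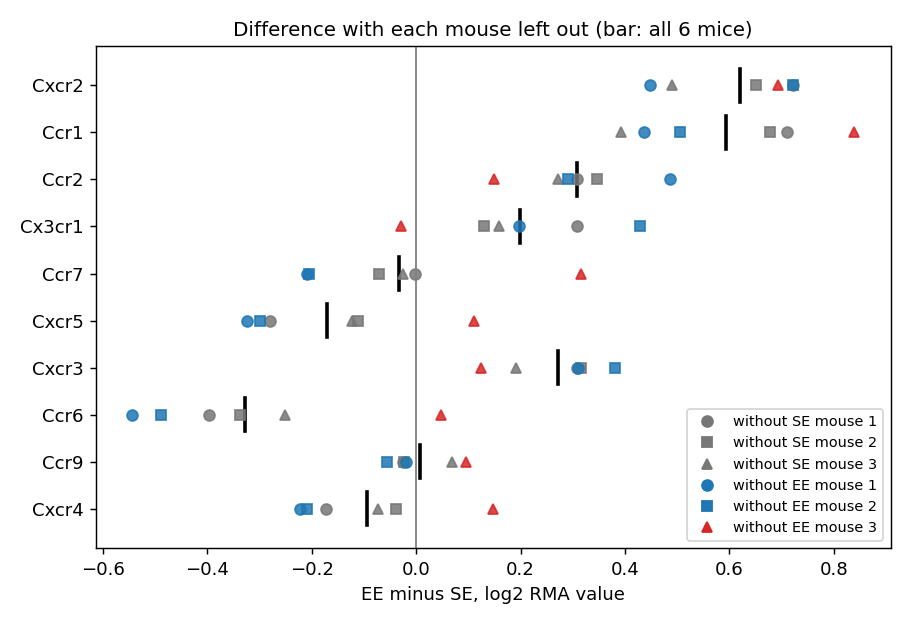
EE minus SE difference in log2 RMA value for each receptor with all 6 mice (black bar) and with 1 mouse left out (points, with EE mouse 3 in red). Without EE mouse 3 the difference moves from -0.03 to 0.32 for Ccr7 and from -0.33 to 0.05 for Ccr6, and that of Cxcr2 stays between 0.45 and 0.72 whichever mouse is left out.

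None of the other chemokine receptors reached the minimum. Of 14 listed, 13 have a probe set. In the fit with no minimum 0 were higher and 1 was lower at an unadjusted p under 0.05, against 1.59% and 1.73% of all probe sets. The lower receptor was Ackr1, the Duffy antigen, an atypical receptor of red cells and venules that binds chemokines without signaling through G proteins. It lay at 6.37, 6.27 and 6.10 in the SE group and at 5.85, 5.78 and 5.69 in EE mice. The difference was -0.47 (standard error 0.12, 95% interval -0.75 to -0.20, limma, unadjusted p = 0.00381, adjusted p = 1.00). Red cell markers lay lower in the same mice. Of the 10 tested, limma gave 9 a negative difference with an unadjusted p under 0.05, and 0 a positive one. Over all probe sets tested with the minimum, the matching shares were 3.14% and 1.46%. The median difference of the 10 markers was -0.69. Their summed level, over the 12 with a probe set, ranged from 8677 to 11463 in SE mice and from 5773 to 7762 in EE mice. Their part in the Ackr1 difference was not tested. Cxcr1, the other neutrophil receptor of the Cxcr2 type, had a mean of 6.05 and a difference of 0.20 (unadjusted p = 0.344).

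Downstream of the receptors, 0 of 18 tested genes of Gi proteins and their effectors reached an unadjusted p under 0.05 in limma in either direction. Of all probe sets tested, 1.46% were higher and 3.14% lower at this threshold. The median difference of the 18 genes was 0.09, and 14 of the 18 differences were positive, against 41.8% of all probe sets tested. Gnai2, the main Gi alpha subunit of leukocytes, lay at 10.28, 10.34 and 10.27 in the SE group and at 10.60, 10.57 and 10.49 in EE mice. All EE values exceeded all SE values, as for 3.92% of all probe sets tested. The Gnai2 difference was 0.25 (standard error 0.12, limma, unadjusted p = 0.0631). Pik3r5, a regulatory subunit of phosphoinositide 3-kinase gamma, differed by 0.26 (unadjusted p = 0.0989) and Rac1, a GTPase of cell migration, by 0.29 (unadjusted p = 0.122).

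For 9 tested genes of receptor kinases, arrestins and RGS proteins the median difference was 0.13. Of the 9, 1 was higher at an unadjusted p under 0.05 and 0 lower, against 1.46% and 3.14% of all probe sets tested. The higher gene was Rgs2, whose action on these receptors was not tested. It lay at 9.00, 8.94 and 8.63 in the SE group and at 9.31, 9.33 and 9.19 in EE mice, a difference of 0.42 (standard error 0.14, limma, unadjusted p = 0.0195). Arrb2, an arrestin that uncouples receptors, differed by 0.31 (unadjusted p = 0.0641) and Arrb1, its relative, by 0.27 (unadjusted p = 0.234).

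Transcripts of most ligands of these receptors were under the minimum in resting blood. Of 24 ligands listed, 22 have a probe set and 5 were tested, and 0 of the 5 reached an unadjusted p under 0.05 from limma. Among all probe sets tested, 1.46% reached it with a positive difference and 3.14% with a negative one. A count of 0 among 5 therefore does not set the ligands apart. Ccl3, a ligand of Ccr1, lay at 6.94, 6.97 and 6.08 in the SE group and at 7.27, 7.07 and 7.19 in EE mice, a difference of 0.52 (standard error 0.24, unadjusted p = 0.0657). Ccl6 differed by 0.40 and Ccl9 by 0.27 (unadjusted p = 0.134 and 0.216). Ppbp, a Cxcr2 ligand of platelets, lay between 13.21 and 13.53 in the 6 mice.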

How the data were processed

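Whole blood RNA of 3 EE and 3 SE mice was hybridized to Affymetrix Mouse Gene ST arrays, 1 per mouse. The methods name an earlier version of the array than the one whose probe annotation matches the table. The authors normalized the arrays by RMA (affy), which corrects the background, normalizes between arrays and summarizes each probe set, and deposited log2 values for 41345 probe sets, which were used as they are. The build used for the array's probes is not given in the sources used here, and GRCm38.p6 is the build of the RefSeq promoters only. RMA removes differences in total RNA and can compress small folds. Precision is limited by the number of arrays, 3 per group.

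The probe annotation gives 1 gene symbol for 23521 probe sets, several for 1820 and none listed for 16004. The methods exclude genes without an Entrez ID or with values under 100 on the linear scale. How arrays were combined for this is not given there, and the average of the 6 arrays' log2 values (at least 6.64) was used here, which left 6154. EE was compared with SE with lmFit and eBayes of limma 3.58.1 (R 4.3.3) without covariates, and p-values were adjusted by Benjamini-Hochberg over all probe sets in the fit. The 3 receptors under the minimum were taken from a fit over 25341 probe sets with no minimum. The code was tested on simulated data with known differences. The study's call is an unadjusted p under 0.05 with a fold above 2 or under 0.5.

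The members and the gene lists were chosen with earlier results of these data known. Named are the 10 receptors, genes of each list at an unadjusted p under 0.05 or otherwise the 3 with the smallest p, and, for receptors past the minimum that spanned at least 1 log2 unit over the mice, the 3 genes with the closest centred values. Not all of these are printed. Genes named for other reasons, as absent defining markers, as relatives of a member or to illustrate a list, were chosen after their values were seen. They are Ly6c2, Treml4, Ace, Adgre4, Nr4a1, Ly6g, Camp, Ltf, Ngp, Trem1, Klrb1c, Cxcr1, Arrb1, Arrb2 and Ppbp. For a listed gene with several probe sets, the one with the highest mean was used. Alternatives covered the minimum, the Entrez filter, the scaling, the settings of limma, array weights, the ordinary t-statistic, the replicate block and each mouse left out.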

Additional observations from a re-analysis of the deposited data

How the results depend on the processing

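The number of receptors higher in EE at an unadjusted p under 0.05 was 1 (Cxcr2) in the main comparison. It was 2 with no expression minimum (Ccr1 added) and 2 with array weights (Ccr7 added), and it ranged from 0 to 2 with a mouse left out, being 0 without SE mouse 3 and 2 without EE mouse 1 (Ccr2 added) or EE mouse 3 (Ccr7 added). The number lower was 0 throughout. The labels give both groups mouse numbers 1 to 3 and do not say whether these pair the mice. The deviations of mice with the same number had correlations of -0.26, 0.05 and -0.31. With 3 mice per group, these values cannot decide whether such mice shared a processing step. With the mouse number as a replicate block the number higher was 1 and the Cxcr2 difference was 0.62 (unadjusted p = 0.00824), with 217 probe sets at an unadjusted p under 0.05 against 283. That number was 1120 with array weights and 709 without EE mouse 3, against 186 without EE mouse 1, and 97 probe sets, with 0 receptors among them, had an adjusted p under 0.05 with array weights, against 0 in the main comparison.

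The sign of a difference changed for Ccr7 with quantile normalization (0.0293) and array weights (0.33), for Ccr6 and Cxcr4 with array weights (0.0042 and 0.0411), and for Ccr9 with arrays centred on their medians (-9e-04). With a mouse left out, the differences ranged from -0.0288 to 0.43 for Cx3cr1, from -0.21 to 0.32 for Ccr7, from -0.32 to 0.11 for Cxcr5, from -0.54 to 0.0468 for Ccr6, from -0.0567 to 0.0961 for Ccr9 and from -0.22 to 0.15 for Cxcr4. Ccr1 missed the threshold with arrays centred on their medians and with the ordinary t-statistic (unadjusted p = 0.0523 and 0.138). The cause of these changes was not tested. Each receptor has 1 probe set, so that averaging probe sets gave no other value. Signals near background limit what can be seen for Ccr1, Cxcr3 and Ccr9.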
